A study of Mus musculus with 3 samples.

Results

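Nodal signalling genes were followed in KH2 cells, a mouse embryonic stem cell line, carrying an inducible knockout of Pold3. This gene encodes an accessory subunit of a DNA polymerase, delta, that copies the lagging strand. The members are 10 genes found by symbol among the 50043 gene IDs of the deposited expression table: the ligand Nodal, its inhibitors Lefty1 and Lefty2, the coreceptor Tdgf1, the receptors Acvr1b and Acvr2b, the signal transducers Smad2 and Smad3, the inhibitory Smad7 and the DNA-binding partner Foxh1. All 10 were in the table and all had at least 1 FPKM in every library. FPKM is a count of fragments divided by gene length and library size. There were 3 libraries of total RNA, 1 each from cells at passage P0, P1 and P2, and without replicates no p-value can be given for any difference. The labels describe the same inducible-knockout cells at all 3 passages. They leave unstated when the knockout was switched on, whether the cells were 1 clone and whether they grew on feeder cells. In bulk RNA, fewer cells of a type and less RNA per cell cannot be told apart.

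Nodal is a secreted ligand of the TGF-beta family. It binds a complex of type I and type II activin receptors, of which Acvr1b and Acvr2b are examples, with the help of the membrane-anchored coreceptor Cripto, the product of Tdgf1. The receptors phosphorylate Smad2 and Smad3, which enter the nucleus with Smad4 and bind DNA together with factors such as Foxh1. In the mouse embryo Nodal, Lefty1 and Lefty2 are themselves targets of the pathway, and the Lefty proteins, secreted inhibitors, close a negative feedback loop. In the embryo the pathway patterns the epiblast and induces mesendoderm, and cultured embryonic stem cells make the ligand and respond to it.

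The rule for calling a gene higher or lower was a difference of 1 or more in log2(FPKM + 1) between 2 libraries, applied to genes that reached 1 FPKM in either. At low levels this scale understates a ratio. Library totals at P0, P1 and P2 were 23213528, 18059914 and 22405670 reads. The targeted gene Pold3 measured 49.2 FPKM at P0, 13.0 at P1 and 11.6 at P2, so it was lower at both later passages. Markers of embryonic stem cells were high in every library, with 8 of 8 at or above 1 FPKM and a summed level of 3102 FPKM at P0, 2807 at P1 and 3045 at P2. Of these 8, Klf4 was the 1 gene called, lower at P2 than at P0. The sum hides shifts of single markers. Esrrb, short of a call, measured 221, 127 and 118 FPKM, a ratio of P2 to P0 of 0.535 (exact 95% counting interval 0.519 to 0.551). At P2 against P0 the difference was negative for 5 of the 8 and positive for 3, with a median of -0.18. Fibroblast markers summed to 7.86 FPKM at P0, 17.9 at P1 and 20.9 at P2. Of 10 listed, 3 were measured, meaning that they reached 1 FPKM in a library of the comparison. Of these 3, Col1a1 and Thy1 were called higher at P1 and at P2 against P0. Fbn1 measured 0.887, 1.26 and 1.73 FPKM and was not called, with a ratio of P2 to P0 of 1.95 (counting interval 1.61 to 2.37). Postn and S100a4 were listed at 0 throughout, and Col1a2, Col3a1, Lum, Dcn and Pdgfrb stayed under 1 FPKM. Primitive endoderm markers summed to 5.77 FPKM at P0, 5.92 at P1 and 8.86 at P2, with 1, 2 and 4 of 7 at or above 1 FPKM. None of the 2 to 4 compared was called, but the ratio of P2 to P0 was 3.18 for Sox7 (exact 95% counting interval 2.08 to 4.97) and 2.37 for Gata6 (1.66 to 3.45). It was 1.58 for Dab2 (1.06 to 2.36). Gata4, the most abundant of the list at 3.39, 2.78 and 3.49 FPKM, had a ratio of 1.03 (0.812 to 1.30). Under 1 FPKM and not compared, Sox17 had a ratio of 5.80 (2.21 to 19.2) from 5 and 28 reads. The intervals of Pdgfra and Foxa2, also not compared, held 1. The part of these other cell types' RNA in the results below was not tested.

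By the 2-fold rule Nodal rose and Lefty1 and Lefty2 fell at P1 against P0, and the same 3 genes were called in the same directions at P2 against P0. The other 7 members stayed within 2-fold in both comparisons. Across all 13288 genes compared at P1 against P0, 4.12% were called higher and 0.549% lower, and across 13472 genes at P2 against P0 these shares were 6.72% and 1.16%. At P2 against P1 none of the 10 members was called, where 0.78% of 13585 genes were higher and 0.883% lower. The median difference over the 10 members was 0.01 at P1 and 0.08 at P2 against P0, beside 0.06 and 0.07 over all genes compared. At P2 against P1 it was 0.04, beside 0.02. With 1 member called higher, 2 lower and 7 not called, the median does not show the members that moved in opposite directions. Among the 7, Smad3 and Smad7 still differed more at P2 against P0 than 79.9% and 82% of all genes compared. Quantile normalization, which gives all libraries 1 distribution, shifted the median of all genes at P2 against P0 to -0.04. It left the calls of the 10 members as they were, while over all genes it gave 384 higher and 129 lower at P1 in place of 548 and 73, and 621 and 260 at P2 in place of 905 and 156.

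**Figure D1:**
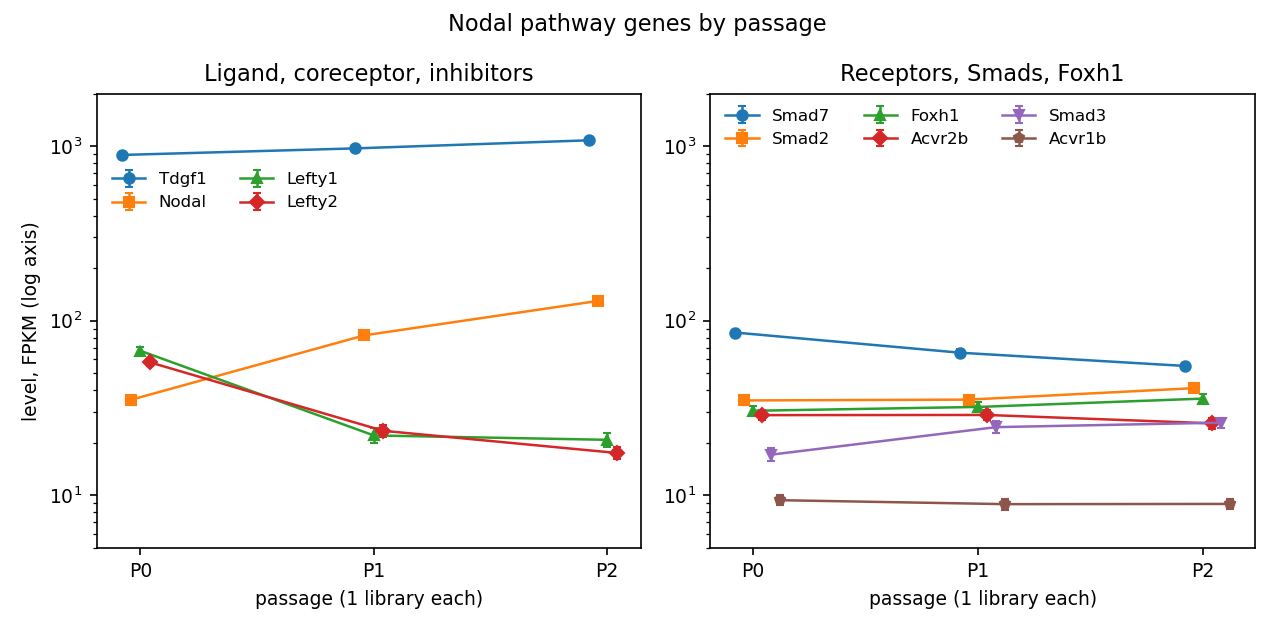
Level of each member in FPKM (log axis) at passages P0, P1 and P2, 1 library each, with lines joining the values of a gene and bars giving exact 95% Poisson counting intervals. Nodal ends in the place below Tdgf1 at P2, while Lefty1 and Lefty2 stand at 67.2 and 57.8 FPKM at P0 and at 20.8 and 17.5 FPKM at P2, and the genes in the right panel stay within 2-fold of their P0 level.

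The ligand Nodal (ENSMUSG00000037171, chromosome 10) measured 35.2 FPKM at P0, 82.4 at P1 and 129.7 at P2, from 1714, 3119 and 6090 reads. It was lowest at P0 and highest at P2, and the counting intervals of the 3 libraries did not overlap. The ratio of P1 to P0 was 2.34 (exact 95% counting interval 2.20 to 2.48) and that of P2 to P0 3.68 (3.49 to 3.89). Between P1 and P2 the ratio was 1.57 (1.51 to 1.64), a difference of 0.65 on the log2 scale that lay short of the 2-fold rule. These intervals cover counting error only and compare libraries, not conditions. Among the genes compared, Nodal had the 312th largest rise at P1 and the 126th largest at P2 against P0. At P2 against P1 it was 384th from the top.

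The stretch of 300 bases around the annotated start of Nodal is shown because this was the member with the largest rise. It spans 250 bases before the start and 50 after it, from the RefSeq promoter table on GRCm38.p6, chr10:61417722-61418021, plus strand, a later build than the mm9 named for the deposited data. The table held 5 of the 10 members: Nodal, Tdgf1, Acvr1b, Acvr2b and Smad3. Capitals mark matches to 4 motifs sought on both strands: TGTNNATT, a core of the FOXH1 motif; CAGAC, a SMAD-binding motif; GTCTAGAC, the SMAD palindrome; and CTTTGNT, a TCF/LEF motif. The Tdgf1 stretch, chr9:110946109-110946408 on the minus strand, is set beside it as that of the most abundant member.
Nodal: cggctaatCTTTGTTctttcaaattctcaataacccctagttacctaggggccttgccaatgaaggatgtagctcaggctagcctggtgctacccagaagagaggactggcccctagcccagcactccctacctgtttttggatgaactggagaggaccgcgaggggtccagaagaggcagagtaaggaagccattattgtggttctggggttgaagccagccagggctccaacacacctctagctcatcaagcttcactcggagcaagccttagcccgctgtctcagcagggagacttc
Tdgf1: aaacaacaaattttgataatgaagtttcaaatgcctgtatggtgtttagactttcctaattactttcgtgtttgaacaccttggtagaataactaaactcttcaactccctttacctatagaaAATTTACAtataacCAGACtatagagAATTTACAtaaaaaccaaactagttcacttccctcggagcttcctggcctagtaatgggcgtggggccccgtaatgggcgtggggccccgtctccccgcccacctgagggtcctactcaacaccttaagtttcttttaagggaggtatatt
The Nodal stretch held 1 TCF/LEF match, starting at position -242 from the annotated start, and no match to the other 3 motifs. The Tdgf1 stretch held 2 TGTNNATT matches, both printed as AATTTACA, starting at positions -127 and -101, with 1 CAGAC match at -113. In TGTNNATT and CTTTGNT the letter N stands for any base. A match to either therefore need not fit the full motif of the factor. Of the 32851 stretches of this length in the table, 12.2% held TGTNNATT, 49.6% CAGAC, 0.213% GTCTAGAC and 18.6% CTTTGNT. Smad3 held 2 CTTTGNT matches, Acvr2b 1 CAGAC match and Acvr1b none of the 4. A match is a run of letters and not a measured binding site.

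Lefty1 (ENSMUSG00000038793) and Lefty2 (ENSMUSG00000066652), both on chromosome 1, encode the secreted inhibitors of Nodal. Lefty1 measured 67.2 FPKM at P0, 22 at P1 and 20.8 at P2, from 1719, 438 and 513 reads. The P0 library stood above both later ones, whose counting intervals overlapped. Against P0, Lefty1 was lower by a factor of 3.05 at P1 (interval 2.75 to 3.40) and of 3.23 at P2 (2.93 to 3.58). The ratio of P2 to P1 was 0.944, with an interval of 0.829 to 1.07 that held 1. Lefty1 had the 8th largest fall of all genes compared at P1 and the 21st at P2 against P0.

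Lefty2 measured 57.8 FPKM at P0, 23.4 at P1 and 17.5 at P2, from 1942, 612 and 567 reads. The 3 libraries did not overlap within counting error, P0 being the highest and P2 the lowest. Against P0 it was lower by a factor of 2.47 at P1 (interval 2.25 to 2.71) and of 3.31 at P2 (3.01 to 3.64), the 26th and 19th largest falls. Between P1 and P2 the ratio was 0.747 (0.665 to 0.839), so the second passage step, small as it was, exceeded counting error for Lefty2 and did not for Lefty1. Whether the 2 genes differed from each other in that step was not tested beyond these intervals, which overlap.

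The Lefty genes are close copies, and the sequences below show where they differ most, since reads can be told apart only at such differences. The coding sequences of 1107 bases each, from the GENCODE M21 transcripts, were 91.9% identical, with 90 mismatches and no gap. The 60-base window with the most differences, bases 34 to 93 of both coding sequences, is shown for each gene, with the 18 differing bases in capitals.
Lefty1, most different window: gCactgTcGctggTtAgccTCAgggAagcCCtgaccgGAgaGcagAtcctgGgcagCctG
Lefty2, most different window: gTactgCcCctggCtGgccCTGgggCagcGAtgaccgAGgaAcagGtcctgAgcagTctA
Of the 1707 windows of 50 bases in the Lefty1 transcripts, 306 (17.9%) also occur in Lefty2. The sources used here give neither the read length nor the handling of reads with several matches, so reads from such windows may have been counted for either gene or for neither. The summed level of both genes was 124.97 FPKM at P0, 45.4 at P1 and 38.3 at P2. The lengths recovered for the genes, 1102 bases for Lefty1 and 1448 for Lefty2, differ, so this sum too depends on how shared reads were counted. Taken as 1 value, the pair was still called lower, with differences of -1.44 at P1 and -1.68 at P2 against P0. Within the libraries the ratio of Lefty1 to Lefty2 was 1.16 at P0, 0.940 at P1 and 1.19 at P2, the P1 library being the lowest of the 3. Its interval, 0.830 to 1.06, overlapped that of P2 (1.05 to 1.34) and not that of P0 (1.09 to 1.24).

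**Figure D2:**
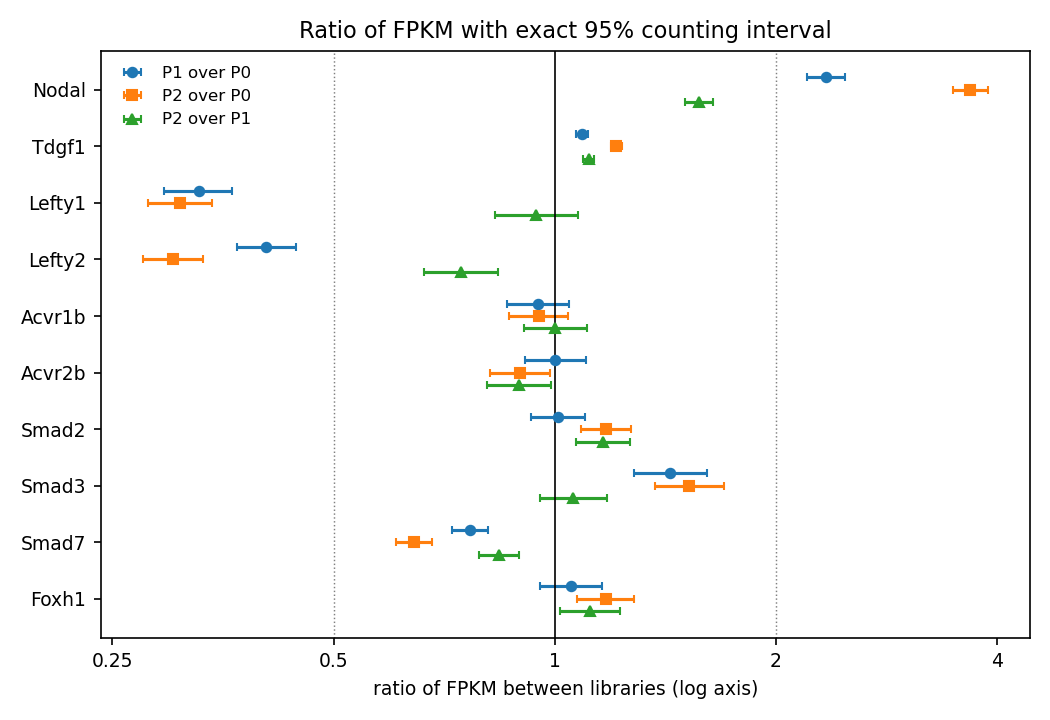
Ratio of FPKM between libraries (log axis) for each member at P1 over P0, P2 over P0 and P2 over P1, with exact conditional 95% counting intervals and dotted lines at 0.5 and 2. Nodal lies to the right of 2 and both Lefty genes to the left of 0.5 in the 2 comparisons with P0, which share the P0 library, and no member lies outside the dotted lines at P2 over P1.

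Set against each other within a library, where scaling factors between libraries cancel, the ligand and its inhibitors changed places in FPKM. Nodal was at 0.282 of the summed level of Lefty1 and Lefty2 at P0, 1.82 at P1 and 3.39 at P2. The ratio at P2 was thus 12.0 times that at P0. Against Lefty1 alone it was 0.524 at P0 (exact 95% counting interval 0.490 to 0.561), 3.75 at P1 (3.39 to 4.15) and 6.24 at P2 (5.71 to 6.85). Against Lefty2 alone it was 0.610, 3.52 and 7.42. In FPKM Nodal was below each inhibitor at P0 and above each at both later passages. At P0 the reads were 1714 for Nodal, 1719 for Lefty1 and 1942 for Lefty2. The place of Nodal at P0 thus depends on the recovered gene lengths, 2095, 1102 and 1448 bases, which the counting intervals leave out. Lengths cancel in the change between libraries of the ratio to a single Lefty gene.

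**Figure D3:**
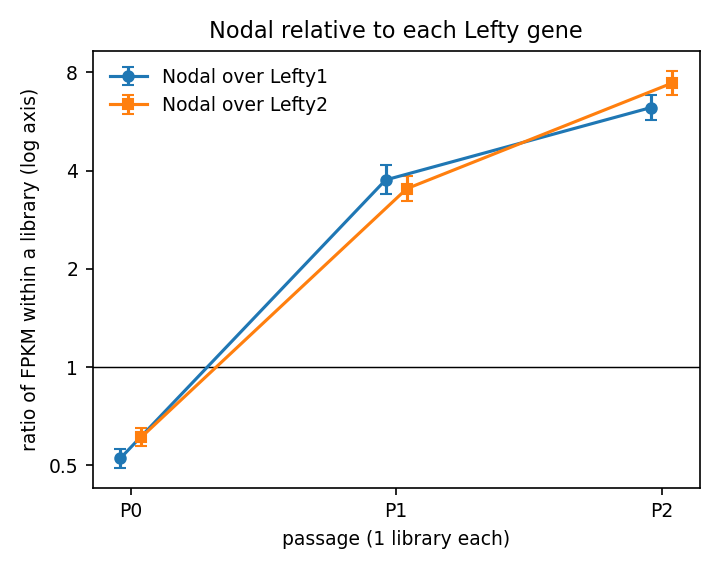
Ratio of the Nodal level to the level of Lefty1 and of Lefty2 within each library (log axis), with exact conditional 95% counting intervals; the horizontal line marks equal levels. Both ratios lie below 1 at P0 (0.524 and 0.610) and above 3 at P1 and P2.

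The coreceptor Tdgf1, on chromosome 9, was the most abundant member in every library, at 889 FPKM at P0, 970 at P1 and 1079 at P2 from 23285, 19757 and 27267 reads. With this many reads even small ratios exceeded counting error: that of P2 to P0 was 1.21 (interval 1.19 to 1.23), far inside 2-fold. In FPKM Tdgf1 exceeded Nodal 25.2-fold at P0, 11.8-fold at P1 and 8.32-fold at P2. Of its 2665 windows of 50 bases, 8.86% also occur in the pseudogene Tdgf1-ps1, which was listed at 16.2, 23.6 and 22.7 FPKM. The pseudogene's level was thus a small part of that of Tdgf1 in each library. Whether its reads came from Tdgf1 was not tested, as the handling of reads with several matches is not given.

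The receptor genes stayed within 2-fold. Acvr1b, a type I receptor gene on chromosome 15, measured 9.37 FPKM at P0, 8.90 at P1 and 8.92 at P2. It was the lowest member by FPKM in all 3 libraries. Its counting intervals overlapped throughout, and the ratio of P2 to P0, 0.952, had an interval of 0.868 to 1.04. Acvr2b, a type II receptor gene on chromosome 9, measured 28.8, 28.8 and 25.8 FPKM, with a ratio of P2 to P0 of 0.897 (0.817 to 0.985). The sign of its difference at P1 against P0, 0.00, turned under median-of-ratios scaling (-0.04) and quantile normalization (-0.06), as that of Smad2 did (0.02 against -0.03 under both). In FPKM Acvr2b exceeded Acvr1b 3.07-fold at P0, 3.24-fold at P1 and 2.89-fold at P2. The reads were close, 963 for Acvr2b and 960 for Acvr1b at P0. These ratios therefore rest on the recovered gene lengths, 1442 bases for Acvr2b and 4413 for Acvr1b, and do not establish a difference in abundance.

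Among the signal transducers, Smad2 on chromosome 18 measured 34.9 FPKM at P0, 35.3 at P1 and 41.1 at P2, and Smad3 on chromosome 9 measured 17.1, 24.6 and 26.1. Smad3 was lowest at P0, and its intervals at P1 and P2 overlapped. The ratio of P2 to P0 was 1.52 for Smad3 (interval 1.37 to 1.70) and 1.18 for Smad2 (1.09 to 1.27), both inside 2-fold. In FPKM Smad2 was 2.04 times Smad3 at P0 (interval 1.85 to 2.26), 1.44 times at P1 (1.30 to 1.59) and 1.58 times at P2 (1.45 to 1.72). The ratio of the 2 transducers was therefore lower in both later libraries than at P0, beyond counting error. Its size within a library also depends on the gene lengths used for FPKM, which cancel in the change between libraries.

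Smad7, the inhibitory Smad on chromosome 18 that blocks the receptors and is induced by TGF-beta signals, measured 85.5 FPKM at P0, 65.5 at P1 and 55.0 at P2. The 3 counting intervals did not overlap, with P0 highest and P2 lowest. Its ratio was 0.767 at P1 against P0 (interval 0.724 to 0.811) and 0.644 at P2 (0.608 to 0.681), short of 2-fold, and 506th from the bottom of all genes at P2. Foxh1, the DNA-binding partner on chromosome 15, measured 30.5, 32.1 and 35.8 FPKM, a ratio of P2 to P0 of 1.17 (1.07 to 1.28).

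The order of the members by FPKM changed mainly through the ligand and its inhibitors. Places within a library also depend on the gene lengths used for FPKM, which the counting intervals leave out. At P0 it ran Tdgf1, Smad7, Lefty1, Lefty2, Nodal, Smad2, Foxh1, Acvr2b, Smad3 and Acvr1b, where Nodal and Smad2, and Foxh1 and Acvr2b, could not be separated within counting error. At P1 Nodal stood next below Tdgf1 and above Smad7, and the Lefty genes were above Acvr1b alone, with overlapping intervals from Smad2 to Foxh1, Foxh1 to Acvr2b, Smad3 to Lefty2 and Lefty2 to Lefty1. At P2 the first 5 were Tdgf1, Nodal, Smad7, Smad2 and Foxh1, and Smad3 and Acvr2b could not be separated.

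**Figure D4:**
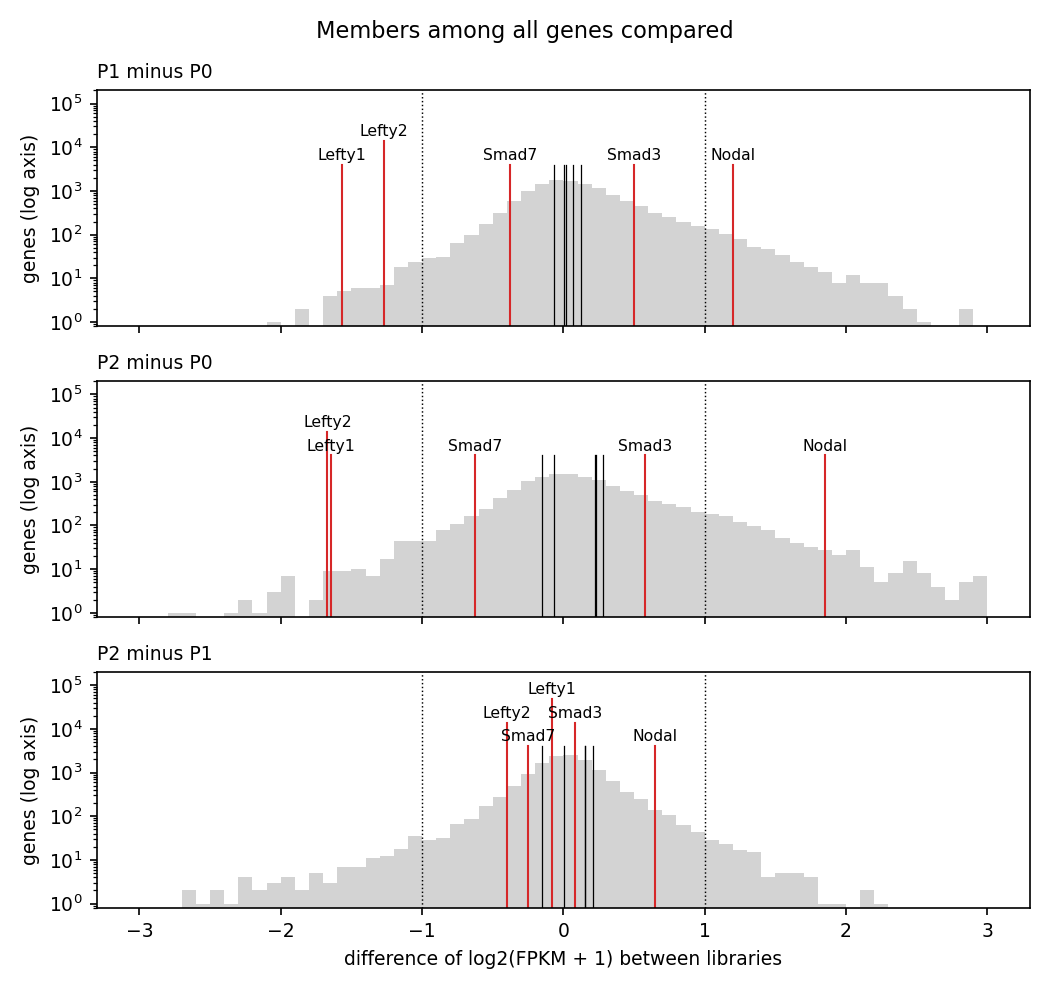
Number of genes (log axis) by difference of log2(FPKM + 1) between libraries for all genes compared, in bins of 0.1 with values beyond 3 in the end bins, with the 10 members as vertical lines and the 2-fold rule dotted. Labels name Nodal, Lefty1, Lefty2, Smad3 and Smad7, and the unlabelled black lines, Tdgf1, Acvr1b, Acvr2b, Smad2 and Foxh1, stand near the centre; heights of the lines carry no value.

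Other genes of the pathway were followed in 4 lists of 45 genes. Of these, 32 had at least 1 FPKM in a library of each comparison, and none was called at P1 or P2 against P0 or at P2 against P1. Their pooled medians were 0.03, 0.08 and 0.06 beside 0.06, 0.07 and 0.02 over all genes. The lists differed among themselves: at P2 against P0 the median was -0.44 over the 3 other ligands measured, 0.17 over the extracellular genes, 0.25 over the receptor genes and 0.05 over the Smads and nuclear partners.

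Among other ligands, 3 of 10 were measured. Inhbb, which encodes an activin subunit, measured 27.0, 13.6 and 19.6 FPKM at P0, P1 and P2. Its difference of -0.94 at P1 against P0 became a call only under quantile normalization. Gdf3, a TGF-beta family ligand expressed in pluripotent cells, measured 92.8, 70.6 and 67.1 FPKM, and Tgfb1 12.2, 14.6 and 13.0. Both of these stayed inside 2-fold. Gdf1 was listed at 0 in all 3 libraries.

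Of 9 genes for extracellular inhibitors and ligand processing, 6 were measured. Fstl3, which encodes a follistatin-like activin antagonist, measured 0.531 FPKM at P0, 1.08 at P1 and 1.91 at P2 from 17, 27 and 59 reads, and Fst, follistatin, 1.09, 2.04 and 1.80. The ratio of P2 to P0 for Fstl3 was 3.60 with an interval of 2.07 to 6.58, while its low level kept it short of a call. Pcsk6, a convertase that cleaves TGF-beta family precursors, measured 30.5, 24.8 and 25.2 FPKM. Cer1, an extracellular Nodal inhibitor of the anterior endoderm, had no read at P0 or P1 and 2 at P2.

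Of 10 other receptor and accessory genes, 7 were measured. Tgfbr3, betaglycan, measured 1.22 FPKM at P0, 3.0 at P1 and 3.30 at P2. Its difference at P2 against P0 was 0.95, short of a call on the log2(FPKM + 1) scale, while its ratio of 2.70 (interval 2.07 to 3.55) lay past 2-fold. Nomo1, which with Ncln encodes parts of a membrane complex reported in zebrafish to oppose Nodal signals, measured 201, 334 and 382 FPKM, a difference of 0.93. Nomo1 rested on 6606, 8563 and 12144 reads, so its ratio of 1.90 at P2 over P0 had an interval of 1.85 to 1.96. Tgfbr1, a type I receptor gene, measured 15.1, 18.5 and 21.5 FPKM. Cfc1 and Acvr1c, a second coreceptor and a further type I receptor able to bind Nodal, had at most 3 reads in a library.

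All 16 genes of the list of other Smads and nuclear partners were measured and all stayed within 2-fold in each comparison. Tgif2, a repressor of Smad-dependent transcription, measured 4.44 FPKM at P0, 3.22 at P1 and 2.84 at P2. Smad6, an inhibitory Smad of the BMP branch, measured 6.0, 5.58 and 8.56 FPKM, and Trim33, a Smad-binding ubiquitin ligase, 47.6, 40.5 and 35.9. The common partner Smad4 measured 64.2, 65.7 and 68.9 FPKM.

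Genes induced by Nodal signals in the mesendoderm of the embryo were mostly at low levels, with 2 of 11 at or above 1 FPKM at P0 and P1 and 3 at P2. None of the 2 or 3 compared was called. Eomes measured 6.06 FPKM at P0, 4.13 at P1 and 8.06 at P2, and Otx2, also an epiblast gene, 8.73, 16.8 and 12.1. Eomes was lowest at P1, where Otx2 was highest. Gata6 measured 0.607, 0.537 and 1.44 FPKM from 45, 31 and 103 reads, and its ratio of P2 to P1 was 2.68 (interval 1.78 to 4.14). The mesendoderm genes T, Mixl1, Gsc, Lhx1, Foxa2, Sox17, Fgf8 and Mesp1 stayed under 1 FPKM throughout and were not compared. On few reads, the ratio of P2 to P0 was 10.4 for Lhx1 (interval 2.52 to 91.4) and 5.80 for Sox17 (2.21 to 19.2). It was 2.88 for Gsc (1.30 to 7.01) and 2.45 for T (1.17 to 5.49). The intervals of Mixl1, Foxa2, Fgf8 and Mesp1 held 1.

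**Figure D5:**
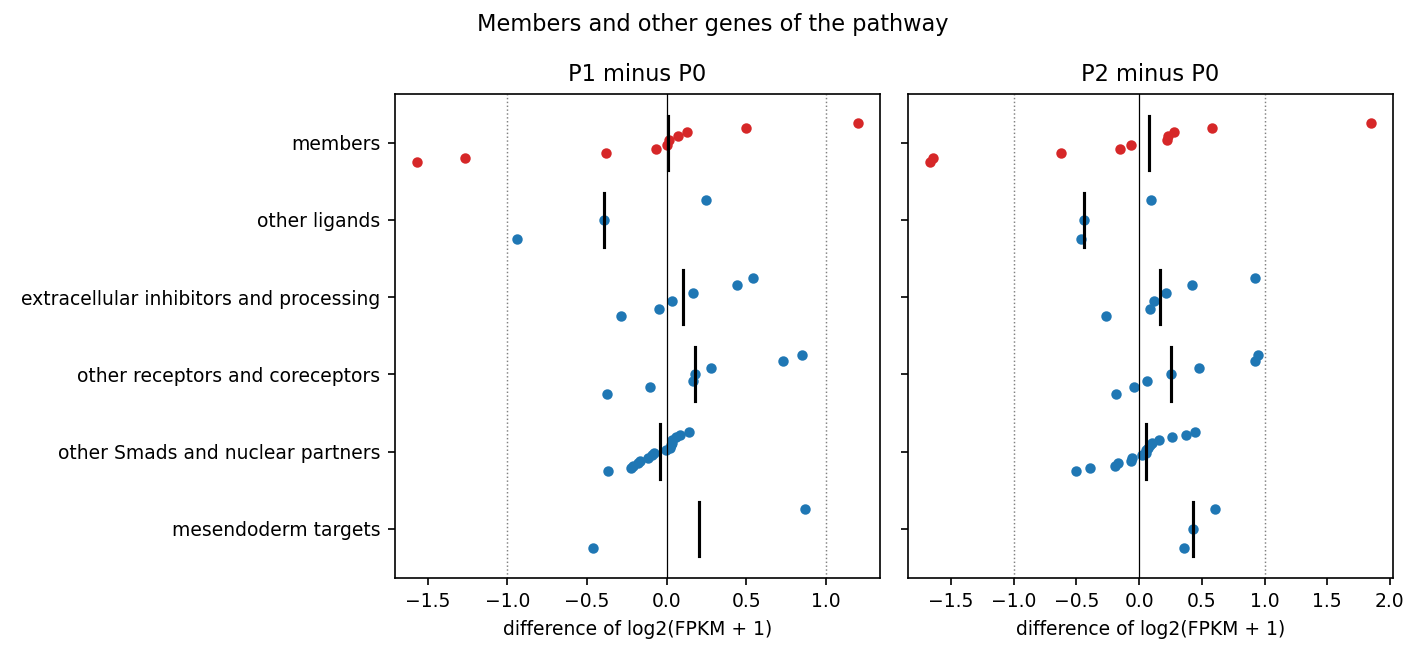
Difference of log2(FPKM + 1) at P1 minus P0 and P2 minus P0 for the 10 members (red) and the measured genes of 5 further lists (blue), 1 point per gene, with a black bar at each list's median and dotted lines at the 2-fold rule. Only Nodal, Lefty1 and Lefty2 lie beyond the dotted lines among the genes plotted.

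Genes most like Nodal and Lefty1 in pattern were sought among 9258 protein-coding genes with at least 5 FPKM in 1 or more libraries, by the root mean square distance between the 2 differences from P0. Both differences share the P0 library and rest on 3 libraries, so likeness here is a description. Nearest to Nodal were Col22a1 (distance 0.03), Slc27a3 (0.05), Zfpm1 (0.06), Acad11 (0.07) and Gm29797 (0.07). Slc27a3, a gene of the fatty acid transport family, measured 12.1, 30.6 and 45.2 FPKM, and Zfpm1, a cofactor of GATA factors, 8.46, 20.1 and 31.3. Col22a1 measured 1.14, 4.05 and 6.82 FPKM and Gm29797 0.799, 3.30 and 5.85. Because log2(FPKM + 1) understates ratios at such levels, Col22a1 and Gm29797 are like Nodal on that scale only. Their ratios of FPKM were larger than those of Nodal. No other member was near Nodal, Smad3 being the closest at 975th place.

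Nearest to Lefty1 were H2afy2, a macroH2A gene (distance 0.07), H1f0, a linker histone gene (0.08), the zinc finger gene Zic5 (0.14), Lefty2 (0.21), Zic2 (0.26) and Upp1, uridine phosphorylase (0.30). Lefty2 thus held place 4 of the 9258. Upp1, the most abundant of these, measured 207 FPKM at P0, 85.8 at P1 and 79.7 at P2. Smad7 was 300th in likeness to Lefty1, and Nodal 9127th.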

How the data were processed

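The authors deposited 1 table of FPKM values for 3 libraries, 1 per passage; per the submitters' processing notes, the build was mm9 and the tools included Bowtie2 2.0.6 and TopHat2 2.0.9. The counting program, annotation and strand setting are not stated there. Symbols and chromosomes came from GENCODE M21. Library totals were the reciprocal of the value of 1 read in single-transcript genes, and whole reads were recovered for 26287 of 26291 IDs above 0 (99.98%) within a relative tolerance of 1e-09. Where several gene lengths fitted, a multiple next to the mean M21 transcript length was taken. The smaller neighbour was used where the mean lay up to a little above midway, as for Smad2, whose intervals may be too wide.

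Differences are of log2(FPKM + 1), later minus earlier passage. Intervals are exact 95% intervals on recovered reads (conditional Clopper-Pearson for ratios) and cover counting error only, as reads carry no molecular identifiers. Both steps were checked on simulated reads. The members and lists were chosen with earlier results of these data known. Some listed items are not reported here. Named were all members, Pold3, listed genes called, and the 5 genes most like Nodal and Lefty1. The up to 3 measured genes of each pathway list with the largest difference between P2 and P0 were named too. Sox7, Gata4, Dab2, Fbn1, Esrrb, Smad4, Ncln, Tdgf1-ps1 and the genes under 1 FPKM were named after their values were seen. As alternatives, values were quantile normalized, scaled by median of ratios or rescaled to a sum of 1000000, the floor was set at 5 FPKM or dropped, and the pseudocount was set at 0.1; summing Lefty1 and Lefty2 was added after seeing the data. Computations used pandas 2.3.3, scipy 1.17.1, numpy 2.4.6 and matplotlib 3.10.9 under Python 3.11.15.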

Additional observations from a re-analysis of the deposited data

How the results depend on the processing

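The 3 calls among the 10 members at P1 and at P2 against P0, and the absence of a call at P2 against P1, were the same under the 6 alternative settings of pseudocount, floor and scaling. Across 180 values of single members under these settings, none crossed the 2-fold rule and 6 turned sign, all within 0.06 of 0 and all for Acvr1b, Acvr2b or Smad2. A change of floor could not alter a member's difference or call, since every member was above 5 FPKM in each library. The values under the floor settings thus repeat the main ones, and only the pseudocount and the scalings could have changed a call. With Lefty1 and Lefty2 summed, 2 of 9 were called at P1 and at P2 against P0. Among the 45 other pathway genes, where none was called, a pseudocount of 0.1 called 1 at P1 (Tgfbr3) and 2 at P2 (Fstl3 and Tgfbr3) against P0, rescaling to 1000000 called the same 2 at P2, and quantile normalization called 1, Inhbb, lower at P1. Over all genes, 621, 1061 and 226 were called at P1 and P2 against P0 and at P2 against P1. A pseudocount of 0.1 gave 1254, 1855 and 635, and a floor of 5 FPKM 342, 599 and 84, where fewer genes were compared. Rescaling gave 380 at P2 against P1. The cause of the other shifts was not tested. No paired analysis was possible because each passage has 1 library. With 1 library a passage, depth limits only counting error, which is small for the members (438 reads or more in each library), and the spread between cultures is unknown.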
